A study of Mus musculus with 6 samples.

Results

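The genes described here are 37 genes of glycolysis and of the response to low oxygen, chosen by name. No cut on a measured value was used, but earlier results of these data were known. Of them, 24 act in glucose uptake, glycolysis and the handling of its end products, and 13 belong to oxygen sensing or are known targets of hypoxia-inducible factors. They were represented by 86 of the 56605 probes on the array, and 36 of the 37 genes were among the 21860 genes tested. All 36 gave a signal well above background on all 6 arrays, so that none entered the test through a single group. The remaining gene, P4ha2, was not well above background on both arrays of any group and is given apart.

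Myeloid-derived suppressor cells (MDSCs) are immature myeloid cells that dampen T-cell responses, and the study asked how removing part of the bone marrow before culture altered them. Total RNA from 3 kinds of mouse culture was measured on 1-colour Agilent arrays, with 2 arrays for each group. MDSC (conv.) were grown from unseparated marrow of female C57BL/6J mice aged 6 to 8 weeks, with granulocyte-macrophage colony-stimulating factor (GM-CSF) at 40 ng/mL for 4 days. 6G- BM-MDSC received the same GM-CSF for the same 4 days, but marrow cells bearing the granulocyte surface protein Ly-6G had been removed first. Dendritic cells (DCs), which present antigen, were grown from marrow with GM-CSF at 20 ng/mL for 8 days. All 3 groups therefore shared the mouse strain and the growth factor. The DCs differed from both MDSC groups in dose, days of culture and dish surface (non-treated, against tissue culture-treated for MDSCs). These differences cannot be told apart from cell type. The cultures were not sorted before RNA extraction, as far as the labels and methods state, so each value is an average over a mixture of cells. A lower signal from such a mixture can come from fewer cells of a type or from less RNA per cell, and the arrays cannot tell these apart.

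Marker genes went with the labels. Of 12 neutrophil markers, 11 were called higher in each MDSC group than in DCs, and of 9 dendritic cell markers 8 were called lower in each. The exception was Flt3, which was called higher in 6G- BM-MDSC (0.50, limma adjusted p = 0.0155). The summed linear signal of the neutrophil markers, relative to each array's 75th percentile, was 1250 to 1580 on the 4 MDSC arrays and 466 to 486 on the DC arrays, and that of the dendritic cell markers was 689 to 757 against 1160 to 1180. Macrophage markers were lower in MDSCs for 6 of 8 genes, with sums of 102 to 109 against 163 to 183. Markers of erythroid cells (3 of 3 tested, with 3 others too dim to test) and of basophils and mast cells (5 of 5) were called higher in each MDSC group, with sums of 9.75 to 13.1 against 3.19 to 3.75 and of 69.0 to 72.3 against 8.37 to 11.9. Of 5 monocyte markers, 1 was called higher and 1 lower in MDSC (conv.) and 2 were called higher in 6G- BM-MDSC, with sums of 361 to 408 against 188 to 207. Of 6 cell cycle genes, 3 were called higher in each MDSC group, with sums of 93.7 to 100 against 71.2 to 81.3. The part that this difference in cell makeup has in the results below was not tested. The MDSC arrays lay in row 1 of the slide and the DC arrays in row 2, so slide row and cell type cannot be told apart in the comparisons with DCs.

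Glycolysis turns glucose into pyruvate in a chain of enzyme steps, most of which can be run by more than 1 isoform, each encoded by a gene of its own. When oxygen is short, prolyl hydroxylases stop marking the transcription factor subunit HIF-1α for destruction, and the stabilised factor raises glucose transporters, most glycolytic enzymes, lactate export and genes such as Vegfa and Bnip3. Activated neutrophils, macrophages and dendritic cells are known for relying on glycolysis, and many of these genes are also set by signals other than oxygen. Hypoxia-inducible factors bind a short core, ACGTG or the related GCGTG, in the regulatory DNA of their targets.

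The sequences upstream of the transcription start were read for the members in the RefSeq tables of the GRCm38.p6 build, with the bases ACGTG and GCGTG searched on both strands in the 250 bases before each start. A CACGTG counts as ACGTG on both strands, since it reads the same on each. Of the 37 members, 35 had such a window, and Slc2a3 and Ndrg1 had none. ACGTG was present in at least 1 window of 23 members (65.7%), against 18.5% of all 27025 genes with a window, and ACGTG or GCGTG was present for 32 members (91.4%) against 41.5%. The median GC content of the member windows was 61.6%, against 52.4% over all 32851 windows, so the motifs were searched in DNA of unlike composition. Of the 11 members called in a comparison with DCs, 9 had a window, 5 of these held ACGTG and 8 held either motif. The windows of 4 called members are shown, 5′ to 3′ on the strand of the gene, because these genes differed from DCs in opposite directions. Hk3 and Slc16a1 were higher in both MDSC groups, and Pfkfb3 and Adm were lower. Capitals mark ACGTG or GCGTG on the strand shown, or their reverse complements (ACGTG on the other strand reads CACGT here), and a match in letters shows neither binding nor a cause.
Hk3, chr13:55021386-55021635, minus strand: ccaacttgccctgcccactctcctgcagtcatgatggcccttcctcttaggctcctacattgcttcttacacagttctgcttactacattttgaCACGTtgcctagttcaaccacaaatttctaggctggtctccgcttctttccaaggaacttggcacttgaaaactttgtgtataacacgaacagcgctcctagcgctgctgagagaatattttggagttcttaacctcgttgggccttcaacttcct
Slc16a1, chr3:104638414-104638663, plus strand: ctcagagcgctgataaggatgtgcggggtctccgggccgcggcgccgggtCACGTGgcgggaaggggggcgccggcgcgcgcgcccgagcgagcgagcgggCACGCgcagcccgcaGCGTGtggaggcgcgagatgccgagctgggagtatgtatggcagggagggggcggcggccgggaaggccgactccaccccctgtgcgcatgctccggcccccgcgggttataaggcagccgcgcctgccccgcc
Pfkfb3, chr2:11502091-11502340, minus strand, 1 of its 2 windows: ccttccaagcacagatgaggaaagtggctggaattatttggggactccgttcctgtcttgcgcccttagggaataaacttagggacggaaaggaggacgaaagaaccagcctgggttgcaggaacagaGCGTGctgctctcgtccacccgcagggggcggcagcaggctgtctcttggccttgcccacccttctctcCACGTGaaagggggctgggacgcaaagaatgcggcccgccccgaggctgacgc
Adm, chr7:110627407-110627656, plus strand: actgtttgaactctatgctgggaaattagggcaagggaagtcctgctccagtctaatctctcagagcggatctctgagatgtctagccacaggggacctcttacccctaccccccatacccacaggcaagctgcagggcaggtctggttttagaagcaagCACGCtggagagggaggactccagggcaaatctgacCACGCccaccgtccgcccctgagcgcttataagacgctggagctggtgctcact
The Slc16a1 and Pfkfb3 windows both held a CACGTG, although Slc16a1 was higher and Pfkfb3 lower in MDSCs than in DCs. The Adm window held GCGTG on the opposite strand and no ACGTG, and the window of Eno2, which was also lower in MDSCs, held neither motif.

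The first question was how far the glycolytic and hypoxia genes separated MDSCs from DCs. A minority did, in both directions and in equal number. In MDSC (conv.), 5 of the 36 tested members were called higher than in DCs (13.9%) and 5 were called lower (13.9%), whereas over all genes tested 13.4% were called higher and 15.8% lower. In 6G- BM-MDSC the counts were again 5 higher and 5 lower, against 15.0% and 17.8% of all genes. The share of members called was thus close to that of all genes in each direction. Calls are those of limma at an adjusted p under 0.05, adjusted over all 21860 genes. Without adjustment, 14 and 15 members passed the same threshold, as did 9269 and 10048 of all genes. The median log2 difference of the members was 0.00044 for MDSC (conv.) and 0.00487 for 6G- BM-MDSC, and that of all genes was −0.03 and −0.04. Of the called members, 4 were higher in both MDSC groups (Slc2a3, Hk3, Pfkfb4 and Slc16a1) and 5 were lower in both (Adm, Aldoc, Eno2, Pfkfb3 and Ndrg1). Ero1l was called higher in MDSC (conv.) alone and Ddit4 in 6G- BM-MDSC alone, and the other 25 members were called in neither comparison. Both comparisons use the same 2 DC arrays. Among the 24 glycolysis members, 4 were higher and 3 lower in each comparison, and among the 12 hypoxia members tested, 1 was higher and 2 were lower.

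**Figure D1:**
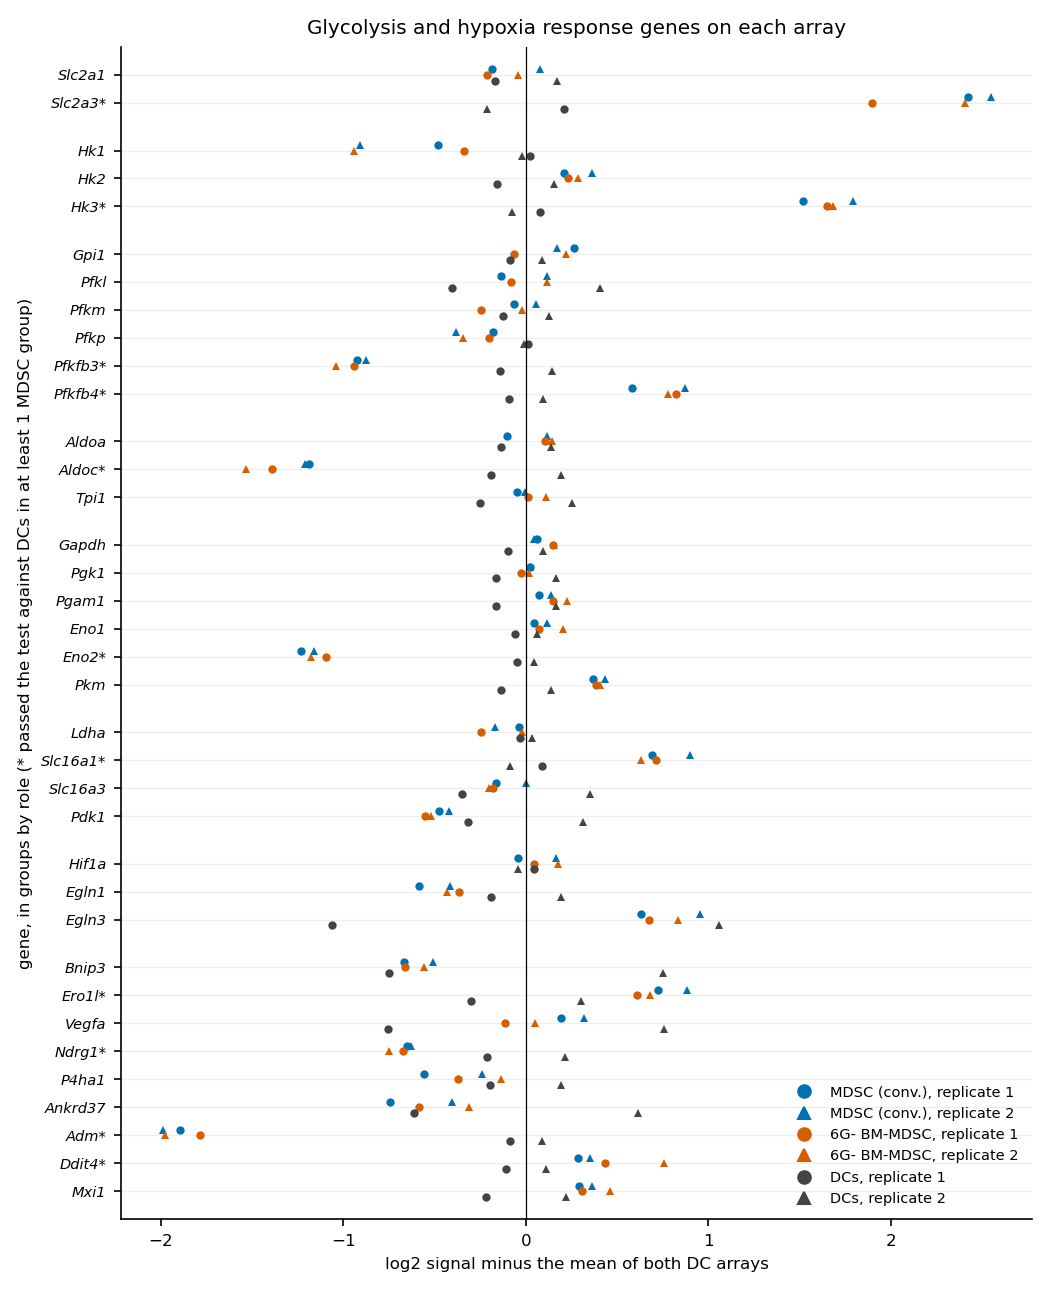
Each row is 1 of the 36 tested members, and the horizontal axis is its log2 signal on each of the 6 arrays relative to the mean of the 2 DC arrays. Colours mark the groups, circles replicate 1 and triangles replicate 2, and an asterisk marks the 11 members called against DCs in at least 1 MDSC group. Slc2a3 and Hk3 lie farthest to the right of the DC arrays and Adm farthest to the left, whereas the DC replicates of Egln3, Vegfa, Bnip3 and Ankrd37 stand far apart.

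Glucose enters cells through transporters of the GLUT family. Slc2a3 encodes GLUT3, a high-affinity transporter, and showed the largest difference of any tested member. Where a pair of differences from DCs is given here and below, the first is that of MDSC (conv.) and the second that of 6G- BM-MDSC. Its log2 signal, relative to the array's 75th percentile, was 0.42 and −0.0038 in DCs, 2.63 and 2.75 for MDSC (conv.) and 2.10 and 2.61 for 6G- BM-MDSC. All 4 MDSC arrays lay above both DC arrays. The difference from DCs was 2.48 on the log2 scale in MDSC (conv.) (SE 0.22, 5.59-fold, limma adjusted p = 0.00236) and 2.15 in 6G- BM-MDSC (4.44-fold, adjusted p = 0.00339). The probe lies at chr6:122678075-122678134 in the mm9 build, and a second, dimmer Slc2a3 probe was well above background on the 4 MDSC arrays and on neither DC array. Gene models of that build were not used here, so the exon a probe lies in is not given. Slc2a1 encodes GLUT1, the widely expressed basal transporter and a textbook hypoxia target. It differed from DCs by −0.05 and −0.13, with a 95% confidence interval of −0.47 to 0.37 in MDSC (conv.), and its arrays overlapped between the groups.

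Hexokinases trap glucose in the cell as glucose 6-phosphate. Hk3, the isoform of myeloid cells, gave 4.05 and 3.89 in DCs, 5.49 and 5.76 for MDSC (conv.) and 5.62 and 5.65 for 6G- BM-MDSC on the log2 scale. The MDSC arrays were again all above the DC arrays. The difference was 1.65 in MDSC (conv.) (SE 0.12, 3.15-fold, limma adjusted p = 0.00138) and 1.67 in 6G- BM-MDSC (3.18-fold, adjusted p = 0.0013), and a second probe gave 1.77 and 1.61. The Hk3 probe lies at chr13:55107377-55107436 (mm9). Hk2, the inducible isoform that responds to HIF-1 in many cells, differed by 0.28 and 0.26, with adjusted p of 0.166 and 0.185. Hk1, the housekeeping isoform, differed by −0.70 and −0.64 on its brightest probe (limma adjusted p = 0.0931 and 0.104). That probe was called under normexp background correction (0.0386 and 0.0406) and with a prior variance that depended on intensity (0.034 and 0.0417). A replicate block gave a call in MDSC (conv.) alone (limma adjusted p = 0.0471). The other 3 Hk1 probes, of which 1 was well above background on 3 arrays only, differed in the opposite direction, by up to 0.48 in MDSC (conv.), so no direction is given for this gene.

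The next steps convert glucose 6-phosphate into fructose 1,6-bisphosphate, with phosphofructokinase as the committed step. Phosphofructokinase is switched on by fructose 2,6-bisphosphate, which enzymes of the PFKFB family make and remove. The PFKFB members Pfkfb3 and Pfkfb4 differed from DCs in opposite directions, whereas Pfkfb1 (0.12 and 0.21) and Pfkfb2 (0.11 and 0.05), which are not members, were not called. Pfkfb3, whose enzyme strongly favours making the activator, gave 4.01 and 4.30 in DCs, 3.23 and 3.28 for MDSC (conv.) and 3.21 and 3.11 for 6G- BM-MDSC. Every DC array was above every MDSC array, with differences of −0.90 (SE 0.12, 1.87-fold lower, limma adjusted p = 0.00694) and −0.99 (1.99-fold lower, adjusted p = 0.00496), and a second probe gave −1.05 and −0.91.

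Pfkfb4, another isoform and likewise a hypoxia target, gave 2.42 and 2.60 in DCs, 3.09 and 3.38 for MDSC (conv.) and 3.33 and 3.29 for 6G- BM-MDSC. The groups did not overlap, with the MDSC arrays higher. The differences were 0.72 (SE 0.13, 1.65-fold, limma adjusted p = 0.0161) and 0.80 (1.74-fold, adjusted p = 0.0115). In MDSC (conv.) the gene was no longer called when replicate 2 of that group was left out (0.58, adjusted p = 0.0673), nor without DCs replicate 1 (0.63, adjusted p = 0.0715). That in 6G- BM-MDSC was lost without either 6G- BM-MDSC array (0.78 and 0.82, adjusted p = 0.0558 and 0.0571) and without DCs replicate 1 (0.71, adjusted p = 0.0548). The other 4 genes of these steps were not called in the main fit. Gpi1, the glucose phosphate isomerase, differed by 0.22 and 0.08, and of the phosphofructokinase subunits Pfkl differed by −0.01 and 0.02, Pfkm by 0.00 and −0.13, and Pfkp by −0.28 in both comparisons. Pfkp was called with a prior variance that depended on intensity (limma adjusted p = 0.0408 and 0.0404). With the mean of its probes it was called in 6G- BM-MDSC alone (−0.35, limma adjusted p = 0.0282). Its 5 probes ran from −0.28 to 0.10 in MDSC (conv.) and from −0.44 to −0.24 in 6G- BM-MDSC.

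Aldolase splits fructose 1,6-bisphosphate into a pair of trioses. Aldoc, the isoform best known from brain, gave 4.98 and 5.37 in DCs, 3.98 and 3.96 for MDSC (conv.) and 3.78 and 3.64 for 6G- BM-MDSC. Both DC arrays were above all 4 MDSC arrays. The difference was −1.20 in MDSC (conv.) (SE 0.15, 2.30-fold lower, limma adjusted p = 0.00575) and −1.46 in 6G- BM-MDSC (2.75-fold lower, adjusted p = 0.00315). All 3 Aldoc probes differed in this direction, by −1.35 to −1.20 and by −1.50 to −1.46, and the one used lies at chr11:78140198-78140257 (mm9). Aldoa, the isoform of muscle and most other tissues, differed by 0.0049 and 0.12, with a 95% confidence interval of −0.33 to 0.34 in MDSC (conv.). Tpi1, which interconverts the trioses, differed by −0.03 and 0.06.

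Lower glycolysis yields ATP and ends at pyruvate. Eno2, the enolase isoform best known from neurons, gave −0.28 and −0.19 in DCs, −1.46 and −1.39 for MDSC (conv.) and −1.33 and −1.41 for 6G- BM-MDSC. The DC arrays were above all MDSC arrays, and the replicates of every group lay within 0.093 of each other. The differences were −1.20 (SE 0.08, 2.29-fold lower, limma adjusted p = 0.00111) and −1.13 (2.20-fold lower, adjusted p = 0.00125), on a single probe at chr6:124710388-124710447 (mm9). Eno1, the enolase of most tissues, differed by 0.08 and 0.14. Pkm, the pyruvate kinase gene, differed by 0.40 in both comparisons (SE 0.11), with every MDSC array above both DC arrays, but did not pass (adjusted p = 0.0547 and 0.0516). Its 4 probes all differed in that direction, by 0.38 to 0.80 and by 0.40 to 1.04, and the gene was called in both comparisons without DCs replicate 2 (0.54 and 0.53, limma adjusted p = 0.0389 and 0.0368), under normexp (0.0364 and 0.039), under quantile normalization (0.0262 and 0.0253), with a prior variance that depended on intensity (0.0146 and 0.014) and when a probe had to be above background on all 6 arrays (0.0409 and 0.0385). With the mean of its probes it was called in 6G- BM-MDSC (0.71, adjusted p = 0.0227).

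Gapdh, Pgk1 and Pgam1 carry out the steps between the trioses and enolase. Gapdh, which the study also used as the reference gene for its PCR, differed by 0.05 and 0.15, with a 95% confidence interval of −0.18 to 0.28 in MDSC (conv.). Its sign depended on the background correction, since normexp gave −0.30 and −0.33 with adjusted p of 0.0176 and 0.0106, and its 7 probes differed by −0.22 to 0.20 in MDSC (conv.). Pgk1 differed by 0.02 and −0.0064. Pgam1 differed by 0.10 and 0.19.

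Pyruvate is reduced to lactate, exported, or sent to the mitochondria. Slc16a1 encodes MCT1, a carrier that moves lactate in either direction, and gave 0.83 and 0.66 in DCs, 1.43 and 1.65 for MDSC (conv.) and 1.46 and 1.38 for 6G- BM-MDSC. All MDSC arrays were above both DC arrays. The differences were 0.79 (SE 0.11, limma adjusted p = 0.00847) and 0.67 (1.59-fold, adjusted p = 0.0128). The call was lost without MDSC (conv.) replicate 2 in that group (0.69, adjusted p = 0.0504), and in 6G- BM-MDSC without either of its arrays (0.63 and 0.71, adjusted p = 0.0607 and 0.0552) and without DCs replicate 2 (0.59, adjusted p = 0.0592). Slc16a3 encodes MCT4, the hypoxia-induced lactate exporter, and differed by −0.08 and −0.19. Ldha, the lactate dehydrogenase subunit that favours lactate formation, differed by −0.10 and −0.13 (95% confidence interval −0.38 to 0.18 in MDSC (conv.)). Pdk1, a kinase that blocks pyruvate entry into the citric acid cycle, differed by −0.45 and −0.54 with limma adjusted p of 0.177 and 0.113. An intensity-dependent prior variance gave a call in 6G- BM-MDSC (limma adjusted p = 0.0493). With 1 array left out, its differences ran from −0.76 to −0.13 and from −0.85 to −0.22.

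**Figure D2:**
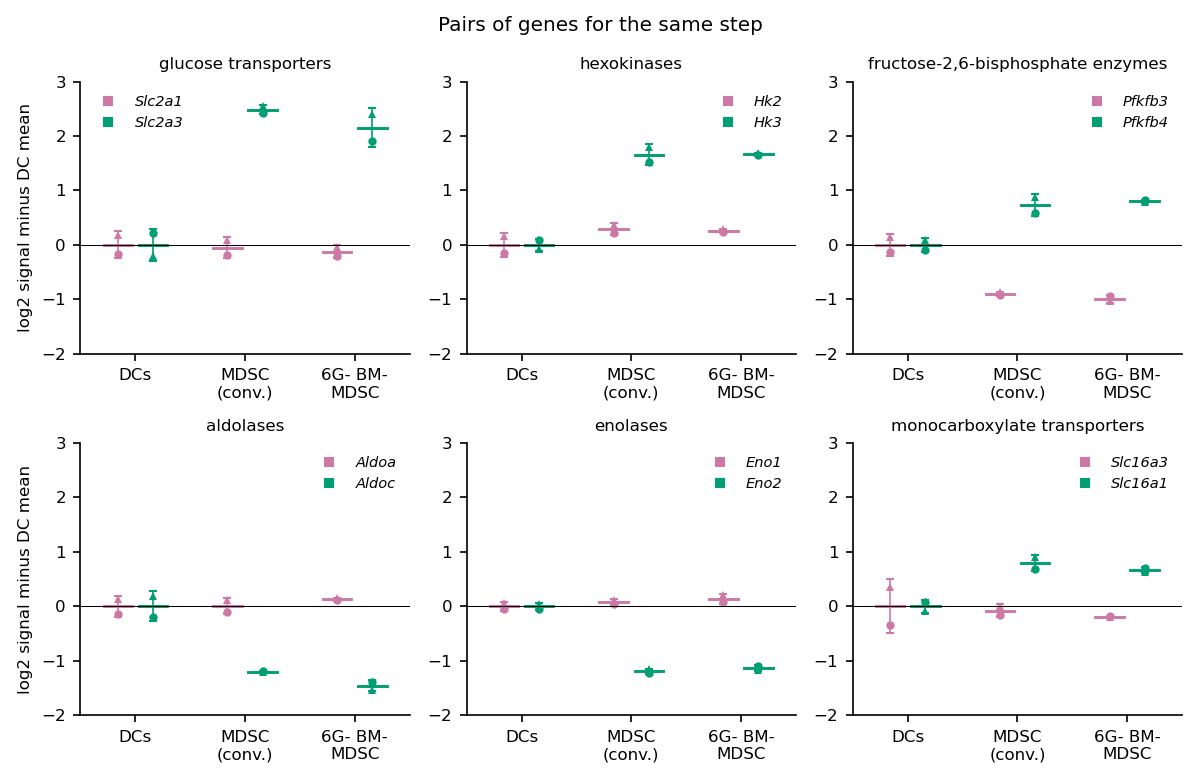
Log2 signal of 6 pairs of related members, relative to the DC mean, by group. Points are arrays, dashes are group means and bars are 1 SD (n = 2). In each pair 1 gene differed from DCs by at least 0.67 in both MDSC groups. Its partner stayed within 0.30 of DCs, except Pfkfb3, which differed the other way from Pfkfb4.

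Set side by side within each array, the isoform pairs shifted between DCs and MDSCs. The log2 ratio of Slc2a3 to Slc2a1 exceeded that of DCs by 2.54 (MDSC (conv.)) and 2.28 (6G- BM-MDSC), and that of Hk3 to Hk2 by 1.37 and 1.41. The ratio of Pfkfb4 to Pfkfb3 was higher by 1.63 and 1.79, and that of Slc16a1 to Slc16a3 by 0.88 and 0.87. In the other direction, the ratio of Aldoc to Aldoa differed by −1.21 and −1.59 and that of Eno2 to Eno1 by −1.28 and −1.27. These pairs were set after the single genes had been seen, and the shifts are a description with no test. A ratio of probe signals shows unequal change and not which isoform gave more RNA.

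The oxygen-sensing members did not pass the test. Hif1a, which encodes HIF-1α, differed by 0.06 and 0.11, with a 95% confidence interval of −0.21 to 0.33 in MDSC (conv.). Egln1 encodes PHD2, the main oxygen-dependent hydroxylase of HIF-1α, and differed by −0.50 and −0.40, with all MDSC arrays below both DC arrays (limma adjusted p = 0.0654 and 0.105). It was called in both comparisons with a prior variance that depended on intensity (0.0207 and 0.0439). In MDSC (conv.) it was also called with probes required above background on all 6 arrays (limma adjusted p = 0.0487). Egln3 encodes PHD3, itself a HIF target, and differed by 0.79 and 0.75 with a confidence interval of −0.98 to 2.56 in MDSC (conv.), because the DC arrays stood far apart.

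Adm encodes adrenomedullin, a vasodilator peptide induced by hypoxia, and showed the largest difference toward DCs of any tested member. It gave −1.96 and −1.78 in DCs, −3.76 and −3.86 for MDSC (conv.) and −3.65 and −3.84 for 6G- BM-MDSC. The groups did not overlap and the DCs were higher. The difference was −1.94 (SE 0.11, 3.85-fold lower, limma adjusted p = 0.000714) in MDSC (conv.) and −1.88 (3.69-fold lower, adjusted p = 0.00077) in 6G- BM-MDSC, on 1 probe at chr7:117773088-117773147 (mm9). The probe was dim, and its differences ran from −1.95 to −1.14 and from −1.88 to −1.05 across the alternatives other than leaving out an array. Those of Aldoc ran from −1.28 to −1.18 and from −1.47 to −1.45, so the size and rank of Adm depended on the processing. Ndrg1, a hypoxia- and stress-responsive gene, gave 4.74 and 5.17 in DCs, 4.30 and 4.33 for MDSC (conv.) and 4.28 and 4.20 for 6G- BM-MDSC. Here too the DC arrays were above all others, with differences of −0.64 (SE 0.15, 1.56-fold lower, limma adjusted p = 0.0358) and −0.71 (1.64-fold lower, adjusted p = 0.0249). For Ndrg1 the call in MDSC (conv.) was kept only when DCs replicate 1 was the array left out (−0.86, adjusted p = 0.0143). Leaving out MDSC (conv.) replicate 1 or 2, 6G- BM-MDSC replicate 1 or 2, or DCs replicate 2 gave adjusted p of 0.126, 0.14, 0.0708, 0.0701 and 0.0644. The call in 6G- BM-MDSC was lost without any 1 of the 4 MDSC arrays, in the same order with adjusted p of 0.0572, 0.0603, 0.0812 and 0.11.

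Ero1l, an oxidase that forms disulphide bonds in the endoplasmic reticulum, gave 3.56 and 4.17 in DCs, 4.59 and 4.75 for MDSC (conv.) and 4.48 and 4.55 for 6G- BM-MDSC. Its MDSC arrays were above both DC arrays. The difference was 0.80 in MDSC (conv.) (SE 0.21, 1.74-fold, limma adjusted p = 0.0463) and 0.64 in 6G- BM-MDSC (adjusted p = 0.0736, not called). The difference between the MDSC groups was −0.16 (adjusted p = 0.817), so the call in 1 group alone does not set them apart. The call was kept only without DCs replicate 2 (1.11, adjusted p = 0.0129). Leaving out either MDSC (conv.) array raised the adjusted p to 0.118 or 0.193, and leaving out either 6G- BM-MDSC array to 0.0881 or 0.0873. The call was also lost without DCs replicate 1 (0.50 on the log2 scale, adjusted p = 0.0673).

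Ddit4, an inhibitor of the growth kinase mTORC1 that is induced by hypoxia and other stress, gave 1.33 and 1.55 in DCs, 1.72 and 1.79 for MDSC (conv.) and 1.87 and 2.19 for 6G- BM-MDSC. The MDSC arrays were above both DC arrays in each case. It differed by 0.32 in MDSC (conv.) (SE 0.14, limma adjusted p = 0.157, not called) and by 0.59 in 6G- BM-MDSC (1.51-fold, adjusted p = 0.0325), while the MDSC groups differed by 0.28 (adjusted p = 0.551). The call was kept only without 6G- BM-MDSC replicate 1 (0.75, adjusted p = 0.035). Leaving out either MDSC (conv.) array raised the adjusted p to 0.0676 or 0.071, and leaving out either DC array to 0.129 or 0.0646. Without 6G- BM-MDSC replicate 2 the difference was 0.43 (adjusted p = 0.109). P4ha1, a collagen prolyl hydroxylase subunit, differed by −0.40 and −0.26, and Mxi1, an antagonist of Myc, by 0.33 and 0.38, and neither was called in the main fit. A second, dim Mxi1 probe differed by 0.35 and 0.865, with limma adjusted p over probes of 0.0913 and 0.00799. With the mean of its probes Mxi1 was called in 6G- BM-MDSC (0.62, limma adjusted p = 0.0278), so its result there depended on the probe.

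Of the 36 tested members, 20 had more than 1 tested probe. For the called genes Hk3, Pfkfb3 and Aldoc the probes, all well above background on the 6 arrays, gave 1 direction in both comparisons with DCs. For the uncalled genes Hk1, Gapdh, Pdk1, Tpi1, Pfkl, Pfkp and Vegfa at least 1 probe differed in sign from the brightest one in 1 or both comparisons. The second probes of Hif1a and Pgk1 also differed in sign from the brightest one in at least 1 comparison, but are listed on the opposite strand to it. The brightest probe was used for each gene.

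**Figure D3:**
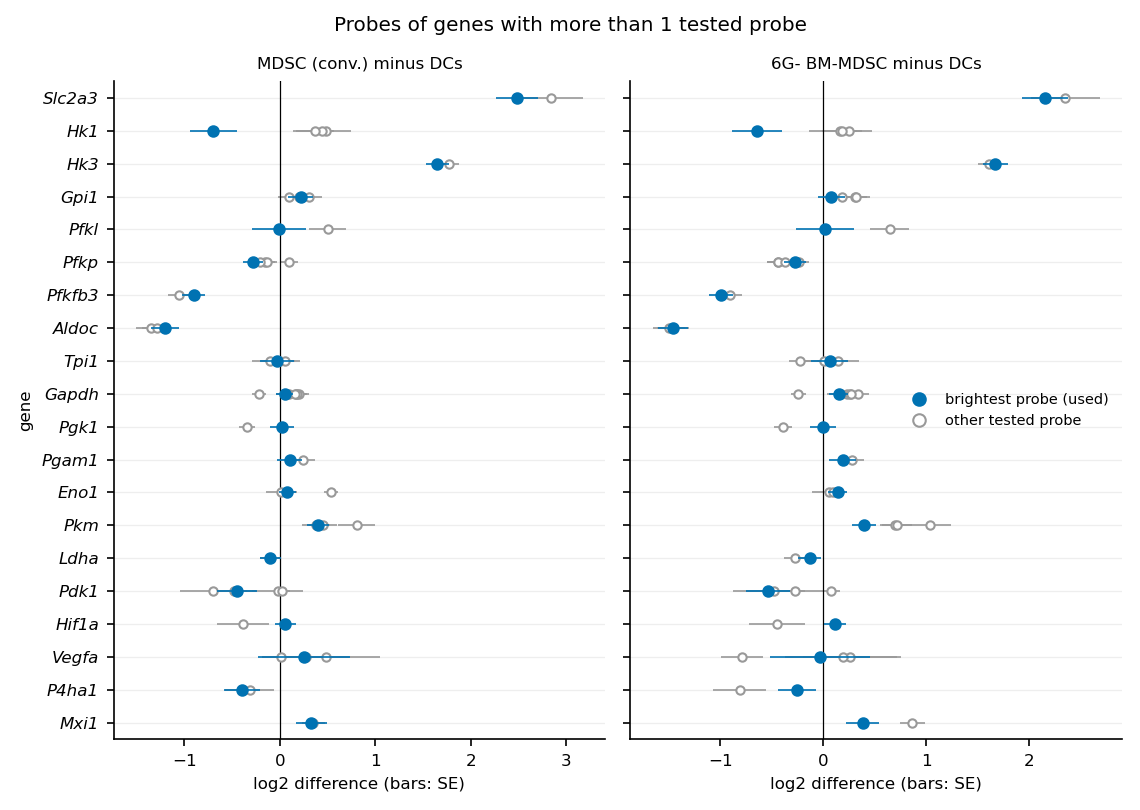
Log2 difference from DCs of every tested probe of the members that had more than 1, with bars for 1 SE. Filled blue points are the brightest probe, which stands for the gene, and open grey points are the other tested probes. The probes of Hk3, Aldoc and Pfkfb3 fall together, and the brightest Hk1 probe lies across 0 from the other 3.

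The second question was whether removing Ly-6G+ marrow cells before culture moved these genes, in a comparison of 6G- BM-MDSC with MDSC (conv.). No member was called by limma in either direction, against 0.00457% of all genes called higher and 0.00915% called lower. No member passed without adjustment either, whereas 2357 of the 21860 genes did. The lowest adjusted p of any member was 0.551, for Ddit4, and the median difference of the members was 0.00141, against 0.00372 for all genes. On the brightest probes, differences ran from −0.33 for Slc2a3 to 0.28 for Ddit4, and 32 of the 36 were under 0.2 in size. Over all tested member probes they ran from −0.81, on a dim Vegfa probe, to 0.51, on a Mxi1 probe. The 4 Pkm probes ran from −0.0032 to 0.33 and the 5 Pfkp probes from −0.34 to 0.0061. The lowest limma adjusted p over probes was 0.278, for a dimmer Eno1 probe. Slc2a3 was lower on both 6G- BM-MDSC arrays (2.10 and 2.61) than on both MDSC (conv.) arrays (2.63 and 2.75) (limma adjusted p = 0.636). Its second probe gave −0.50. Pfkfb3, Aldoc, Pgk1, Slc16a3, Pdk1, Ero1l, Vegfa and Ndrg1 were likewise lower without overlap, and Tpi1, Gapdh, Pgam1 and Ddit4 higher without overlap. Such a separation can arise by chance with so few arrays, so it does not set Slc2a3 apart. The median SE was 0.14, and the widest 95% confidence interval reached 1.77 on either side of the difference, for Egln3. These intervals are not adjusted for the number of genes tested. With 2 arrays in each group, differences beyond them could also go uncalled, as did that Eno1 probe at −0.44 (SE 0.08).

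A set of hypoxia members differed more between the 2 DC arrays than between DCs and MDSCs. Egln3 gave −0.38 on DC replicate 1 and 1.74 on DC replicate 2, while the 4 MDSC arrays lay between 1.31 and 1.63. Bnip3, which drives removal of mitochondria in hypoxia, gave 3.42 and 4.93 in DCs against 3.51 to 3.66 in MDSCs. Vegfa, the vascular growth factor, gave −0.22 and 1.29 in DCs against 0.42 to 0.85. Ankrd37, a small HIF target, gave 0.23 and 1.45 against 0.09 to 0.53. For Egln3 and Vegfa the MDSC arrays thus fell between the DC arrays, and for Bnip3 and Ankrd37 DC replicate 2 stood above all other arrays. These 4 genes were singled out after their values had been seen.

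These were the only tested members with replicates more than 1 log2 unit apart in any group. In DCs they made up 4 of 36 members (11.1%) and 4 of the 12 hypoxia members tested (33.3%), all higher on replicate 2, against 2.33% of all genes apart by that much in either direction and 1.11% higher on replicate 2. No member was that far apart in either MDSC group, against 1.36% of all genes for MDSC (conv.) and 1.89% for 6G- BM-MDSC. The median difference of replicate 2 from replicate 1 in DCs was 0.43 for the hypoxia members and 0.26 for the glycolysis members, and −0.00053 for all genes, and 30 of the 36 members were higher on replicate 2. The same median over the 36 members was 0.10 for MDSC (conv.), with 28 higher on replicate 2, and 0.06 for 6G- BM-MDSC, with 25 higher. Among glycolysis members the DC replicates differed most for Pfkl (0.81), Slc16a3 (0.71) and Pdk1 (0.63). Of 17 further hypoxia targets tested, 14 were higher on DC replicate 2, with a median difference of 0.32, among them Ak4 at 1.78 against −0.49. Car12, Car9 and Bhlhe40 went the other way, by −1.75, −0.18 and −0.02. Car12, and Plod2 among the 14, were well above background on neither DC array. Of the 5 monocyte markers, F13a1 gave 2.76 on DC replicate 2 against 0.71 on replicate 1 and Cx3cr1 −0.73 against −1.76, whereas Ly6c2 (4.89 and 4.74), Ccr2 (3.25 and 3.20) and Csf1r (7.32 and 7.23) differed by less than 0.15. The summed signals on DC replicates 1 and 2 were 188 and 207 for the monocyte markers, 1160 and 1180 for the dendritic cell markers and 486 and 466 for the neutrophil markers. They were 163 and 183 for the macrophage markers and 81.3 and 71.2 for the cell cycle genes. For the basophil and mast cell markers they were 11.9 and 8.37, and for the erythroid markers 3.75 and 3.19. What set the DC arrays apart was not tested, and the labels do not say whether they came from separate cultures.

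**Figure D4:**
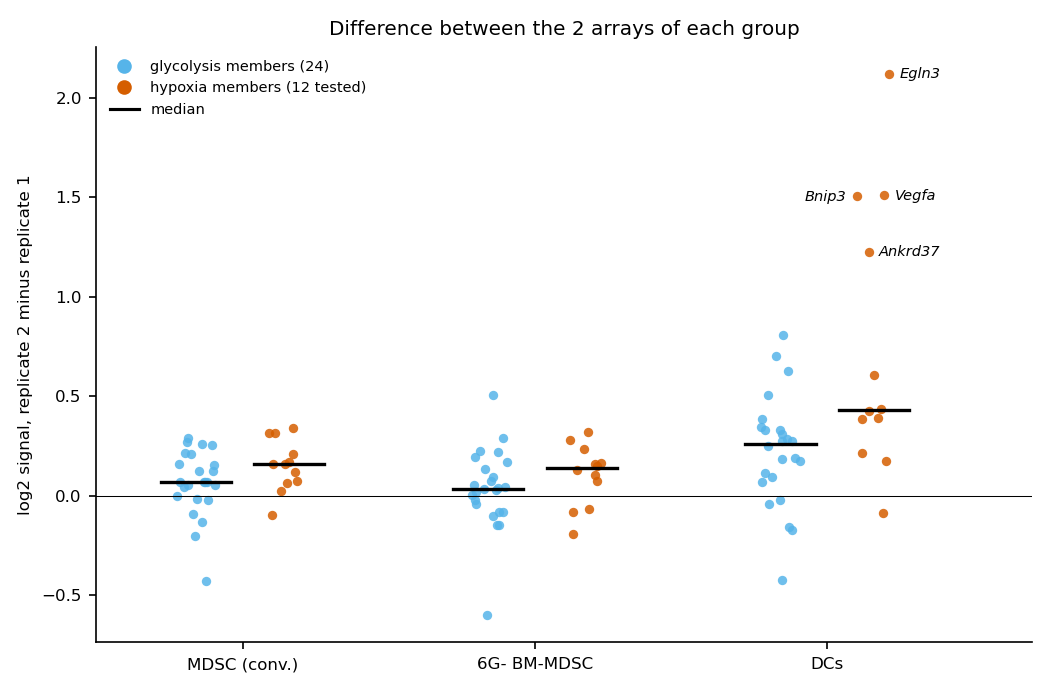
Difference in log2 signal between replicate 2 and replicate 1 of each group, for glycolysis and hypoxia members, with 1 point for each member and a black bar at the median. The DC points of Egln3, Vegfa, Bnip3 and Ankrd37 lie above 1, and no member does so in the MDSC groups.

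Leaving out 1 DC array changed several calls and the direction of the members as a group. Calls were also lost when an MDSC array was left out. Without DC replicate 1, 3 members were called higher in each comparison, while 10 (MDSC (conv.)) and 11 (6G- BM-MDSC) were called lower, with 8.48% and 9.50% of all genes called higher and lower in the first comparison and 9.05% and 10.3% in the second. Without DC replicate 2, 8 members were called higher in each comparison, and 4 and 5 lower, against 8.23% and 8.70%, and 9.12% and 10.1%. The median difference moved from −0.22 and −0.26 without replicate 1 to 0.15 and 0.17 without replicate 2. Against DC replicate 2 alone Bnip3 differed by −1.34 and −1.36 (limma adjusted p = 0.00876 and 0.00834) and Ankrd37 by −1.19 and −1.06 (adjusted p = 0.0365 and 0.044). Against DC replicate 1 alone Egln3 was higher by 1.85 and 1.81 (adjusted p = 0.00995 and 0.01). Vegfa in 6G- BM-MDSC was called in both fits with opposite signs, at −0.79 (adjusted p = 0.0287) against DC replicate 2 and at 0.72 (adjusted p = 0.0348) against DC replicate 1. In these fits the lone DC array is assumed to vary like the other groups. The counts and medians without DC replicate 1 cover 37 members, because P4ha2 then entered the test. It entered only through its high signal on DC replicate 2, so its lower call was fixed in advance and adds nothing to the shift. Slc2a3, Hk3, Adm, Aldoc, Eno2 and Pfkfb3 were called in both comparisons whichever of the 6 arrays was left out.

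P4ha2, the untested collagen hydroxylase subunit, gave −4.56 and −1.76 in DCs, −5.46 and −5.42 for MDSC (conv.) and −5.42 and −5.66 for 6G- BM-MDSC on its RefSeq probe. It was well above background on DC replicate 2 alone, where it stood above the other 5 arrays. When DC replicate 1 was left out it entered the test and is among the 10 and 11 members called lower there. That call rests on a single DC array, and the MDSC arrays were not well above background, so no exact difference is given.

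Neighbouring pathways were examined through lists of genes that are not members, against the same shares of all genes called (13.4% higher and 15.8% lower for MDSC (conv.), 15.0% and 17.8% for 6G- BM-MDSC). The pentose phosphate pathway branches from glucose 6-phosphate and makes NADPH, and of its 8 genes 5 were called higher in each MDSC group, and 1 was called lower in MDSC (conv.) but 0 in the other group. H6pd was higher by 0.82 and 0.78, Pgd by 0.70 and 0.87 and G6pdx, which encodes its first enzyme, by 0.65 and 0.69 (limma adjusted p of at most 0.00768). Of 10 genes of glycogen metabolism, 4 (MDSC (conv.)) and 5 (6G- BM-MDSC) were called higher and none was lower. Gbe1, the branching enzyme, was higher by 1.13 and 1.09, and Pygl, a glycogen phosphorylase, by 0.93 and 0.86. Of 15 further glycolysis enzymes and isoforms, 4 were higher and 4 lower in each comparison. Ldhc, best known from testis, was higher by 2.08 and 1.56, Adpgk, an ADP-dependent glucokinase, by 1.52 and 1.38, and Pgam2, the muscle isoform, was lower, at −1.48 in both.

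Of 11 genes that carry pyruvate into the mitochondria or act on pyruvate dehydrogenase, 3 were lower in each comparison, while 1 was higher in MDSC (conv.) but 4 in 6G- BM-MDSC. Pdk2, an inhibiting kinase, was lower, at −1.23 and −1.08, and Mpc2, a subunit of the pyruvate carrier, was higher by 0.49 and 0.53. Dld, a subunit shared by several dehydrogenases, differed by 0.35 (adjusted p = 0.0654) and was called in 6G- BM-MDSC at 0.46. Of the 5 other genes of the hypoxia-inducible factor system, 2 were lower in each comparison and none was higher. Vhl, which marks hydroxylated HIF-1α for destruction, was lower, at −0.75 and −0.82 (limma adjusted p = 0.00452 and 0.0034), Epas1, which encodes HIF-2α, differed by −0.44 (not called) and −0.62, and Hif1an, another hydroxylase of HIF, by −0.39 and −0.19 (not called). Of 17 further hypoxia targets, 2 were higher in each comparison, and 1 and 3 were lower. Zfp395 differed by −0.73 (not called) and −1.14, Wsb1 was higher by 0.58 and 0.69, and Car9, a carbonic anhydrase widely read as a hypoxia marker, differed by −0.62 (not called) and −0.65. No gene of these 6 lists was called between the MDSC groups in limma, and Ldhc, Galm, Tkt and Pygm passed without adjustment only.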

How the data were processed

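RNA samples were hybridised singly to 6 Agilent mouse arrays on 1 slide scanned once (2 in each of 3 groups, as given by the sample labels). The authors deposited scanner files with Feature Extraction's processed signal, a linear intensity after background subtraction and detrending, per the file headers (version 10.7.3.1, array design 074809, probe positions in mm9; the submitters' processing notes name version 10.5.1.1). A value table deposited beside them differed from these intensities by at most 0.005. Comparisons of the authors' own were not among the values used.

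Control probes and marked spots (103 to 146 on an array) were left out, spots of 1 probe were averaged, and log2 signal was taken relative to each array's 75th percentile (560.188 to 633.257). No spot was saturated, and 55.6% to 59.9% of probes were well above background. Of 56605 probes, 33482 were well above background on both arrays of at least 1 group and were tested as 21860 genes, each by its brightest probe. Gene names came from the files, updated through RefSeq accessions for 58.29% of probes (1535 renamed). A single limma fit (version 3.58.1, R 4.3.3) over all 6 arrays, with 3 residual and 1.96 prior degrees of freedom, gave each difference, and p-values were adjusted by Benjamini-Hochberg over all genes at 0.05. The procedure was tested on simulated data. The labels do not say whether replicates came from separate cultures, so p-values measure only the spread between these arrays. Precision was limited by 2 arrays in a group.

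The members and all gene lists were chosen with earlier results of these data known. Every member is accounted for. Of each other pathway list, up to 3 genes with the largest mean difference from DCs among those called are named, and 1 gene that this rule would name is not reported here. The rule also covered the marker lists, which are given by counts and sums, with single markers named for an exception or for the DC replicates and chosen after their values were seen. Alternatives covered background correction, scaling, probe filter, probe choice, marked spots, source table, arrays fitted, replicate block, prior variance, Student's t-test and leaving out each array. The study's methods name Student's t-test in their general statistics, and for the arrays they give fold changes and gene set enrichment. Promoter windows came from RefSeq tables, and plots were drawn in Python 3.11.15 with matplotlib 3.10.9.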

Additional observations from a re-analysis of the deposited data

Results flagged for a closer look

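Among member probes that were not tested because they were not well above background on both arrays of any group, 4 gave a signal well above background on at least 1 array. The P4ha2 probe did so on DC replicate 2 alone, at −1.76 on the log2 scale relative to the array's 75th percentile. A second-transcript probe of Hif1a (−4.49) and a dim probe of Slc16a3 (−4.00) also did so on DC replicate 2 alone. A dim probe of Pfkfb4 did so on MDSC (conv.) replicate 1 and on 6G- BM-MDSC replicate 2, where it was highest at −4.76.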

How the results depend on the processing

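The 10 member calls of each comparison with DCs were kept under the alternatives other than leaving out an array and Student's t-test, with these exceptions. In MDSC (conv.) Ero1l was lost without a filter on dim probes (limma adjusted p = 0.0663). When only the arrays of the compared groups were fitted, Ero1l (0.0752) and Ndrg1 (0.06) were lost in MDSC (conv.) and Ddit4 (0.0592) in 6G- BM-MDSC. An intensity-dependent prior variance raised the members called lower to 8 for MDSC (conv.) but 9 for 6G- BM-MDSC. Normexp background correction raised those of 6G- BM-MDSC to 8. Gapdh changed sign under normexp, to −0.298 (MDSC (conv.)) and −0.333 (6G- BM-MDSC). Student's t-test called 0 members in either direction in both comparisons with DCs after Benjamini-Hochberg adjustment, with 7 and 8 members at an unadjusted p under 0.05. With each array left out in turn, the members called higher ranged from 2 to 8 in each comparison, and those called lower from 4 to 10 (MDSC (conv.)) or 4 to 11 (6G- BM-MDSC). The median difference ranged from −0.224 to 0.154 and from −0.258 to 0.166. Both ends of the medians came from leaving out DC replicate 1 or 2, and so did the range of Vegfa in 6G- BM-MDSC, from −0.788 to 0.722. Between the MDSC groups 0 members were called under every alternative run, with at most 2 at an unadjusted p under 0.05. The cause of these changes was not tested. Same-numbered arrays deviated together with correlations of 0.125, 0.0415 and 0.114. A low correlation over all genes cannot show whether the numbers pair the arrays, and the labels do not say. The replicate block gave 5 members higher and 7 lower for MDSC (conv.), 5 and 5 for 6G- BM-MDSC and 0 between the MDSC groups.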
